A study of Mus musculus with 3 samples.

Results

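*Il6*, *Il10*, *Il12a*, *Il12b*, *Il23a*, *Il27*, *Ebi3*, *Il15* and *Il15ra* are 9 of the 32285 genes counted in single bone marrow-derived macrophages (BMDMs) of the mouse that were treated with lipoproteins of *Borrelia burgdorferi*, the spirochete of Lyme disease. They were taken by their symbols, and each symbol matched 1 row of the count tables. They encode IL-6, IL-10, the subunits of IL-12, IL-23 and IL-27, and IL-15 with the alpha chain of its receptor. The comparison asks which of these cytokine transcripts stood higher or lower after 1 hour and after 4 hours with the lipoproteins, in how many cells, and which were too sparse to say.

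The cells came from the pooled bone marrow of female C3H/HeN mice of 6 to 8 weeks and were grown as macrophages in culture. Borrelial lipoproteins (*Bb*LP), purified from strain B31, were added at 1 µg/mL, for 1 hour in LP1 and for 4 hours in LP4, and the untreated control (Ctrl, labelled UI) received PBS and was collected with LP4. LP1 has no control of its own time. The cells of 3 wells were pooled before 10x capture, so each condition is 1 library with no replicate, no test between conditions was made, and all intervals are 95% intervals that cover counting error only.

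IL-6 and IL-10 are cytokines that macrophages release after sensing microbial products, and they are known for opposed roles, IL-6 driving the acute phase response and IL-10 restraining inflammation. IL-12, IL-23, IL-27 and IL-35 are heterodimers that share chains: p35 (*Il12a*) with p40 (*Il12b*) makes IL-12, p19 (*Il23a*) with p40 makes IL-23, p28 (*Il27*) with EBI3 makes IL-27, and p35 with EBI3 makes IL-35. IL-15 sustains NK cells and memory CD8 T cells, and macrophages and dendritic cells present it on the IL-15 receptor alpha chain (*Il15ra*). Each heterodimer needs both of its chains, while the data here are transcripts alone and do not show which proteins were secreted.

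RefSeq promoter sequences (GRCm38.p6) were at hand for 5 of the 9 genes, *Il6*, *Il12a*, *Il12b*, *Ebi3* and *Il15ra*. *Il10*, *Il23a*, *Il27* and *Il15* had no entry. The 250 bases before the annotated start are printed for 4 of them, since *Il6* and *Il15ra* stood far higher in LP4 and *Il12b* and *Ebi3* did not. The windows, all on the plus strand, are chr5:30012864-30013113 for *Il6*, chr2:11705043-11705292 for the first of 2 starts of *Il15ra*, chr11:44399813-44400062 for *Il12b* and chr17:55952373-55952622 for *Ebi3*. Capitals mark every match, on either strand, to the NF-κB consensus, the C/EBP motif TTGCNNAA, the AP-1 motif TGANTCA, the interferon-stimulated response element (GAAA, NN, GAAA) or the STAT motif TTCNNNGAA.
Il6: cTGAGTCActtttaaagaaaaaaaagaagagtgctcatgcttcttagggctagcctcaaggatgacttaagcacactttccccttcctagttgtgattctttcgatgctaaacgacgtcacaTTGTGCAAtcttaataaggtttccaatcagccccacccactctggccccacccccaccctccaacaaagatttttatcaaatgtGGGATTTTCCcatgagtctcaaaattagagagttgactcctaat
Il15ra: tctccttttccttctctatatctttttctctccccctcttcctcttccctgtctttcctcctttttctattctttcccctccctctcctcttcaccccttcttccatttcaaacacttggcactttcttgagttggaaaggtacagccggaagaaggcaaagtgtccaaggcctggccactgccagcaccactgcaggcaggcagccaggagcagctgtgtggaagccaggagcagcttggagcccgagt
Il12b: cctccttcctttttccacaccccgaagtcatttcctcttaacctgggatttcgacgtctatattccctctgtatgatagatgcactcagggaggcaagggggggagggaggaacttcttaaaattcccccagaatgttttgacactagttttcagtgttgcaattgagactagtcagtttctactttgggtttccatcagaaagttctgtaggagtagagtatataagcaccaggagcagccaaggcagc
Ebi3: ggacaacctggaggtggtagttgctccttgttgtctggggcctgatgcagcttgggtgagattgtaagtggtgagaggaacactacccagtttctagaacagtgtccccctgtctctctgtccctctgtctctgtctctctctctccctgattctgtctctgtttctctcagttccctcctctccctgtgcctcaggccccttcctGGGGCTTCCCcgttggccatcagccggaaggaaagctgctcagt
*Il6* held 3 matches, for AP-1 from 249 to 243 bases before the start, for C/EBP from 128 to 121 bases and for NF-κB from 44 to 35 bases. *Ebi3* held 1 match, for NF-κB, also from 44 to 35 bases before its start. *Il12b* and the first start of *Il15ra* held none of these letters, nor did either start of *Il12a*, and the second start of *Il15ra* held 1 AP-1 match. No match overlapped another. Of 32851 windows of the same length, 7.25% held the NF-κB consensus, 9.56% the C/EBP motif, 6.75% the AP-1 motif, 2.98% the interferon-stimulated response element and 7.02% the STAT motif. A match describes the letters and is no measured binding.

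After the limits on cells were applied, 6071 Ctrl, 5065 LP1 and 4670 LP4 cells were left with 35688939, 52475723 and 61402275 UMIs (unique molecular identifiers, each 1 counted transcript). Median depth per cell was 5133 UMIs with no lipoprotein, 9343 after 1 hour and 11784 after 4 hours, so LP4 was the deepest and shares of cells are given after each cell was thinned to 2000 UMIs. Levels are UMIs of a gene per 1000000 UMIs (CPM). Between 4 and 10 barcodes occurred in each pair of libraries. Of the 10 macrophage markers, *Lyz2*, *Csf1r* and *Cd68* were seen, without thinning, in at least 94.5% of the cells of every library. *Adgre1*, *Itgam*, *Fcgr1* and *Mrc1* were seen in 38.0% to 57.3% of Ctrl cells and 60.9% to 87.9% of LP4 cells. *Mertk*, *C1qa* and *C1qb* were seen in 15.0% to 24.3% of the cells of each library. The 10 together stood at 10804 to 11875 CPM, of which *Lyz2* made up 8716.5 to 9684 CPM. The 12 neutrophil markers summed to 382 CPM in Ctrl against 290 in LP1 and 532 in LP4, the 12 dendritic cell markers to 223 to 236 CPM, the 12 cell cycle markers to 744 to 849 CPM, the 5 stromal markers to 3.05 in Ctrl and 16.7 in LP4, and the 4 B cell markers to 1.45 to 2.89 CPM. All 6 T or NK cell markers and all 4 mast cell or basophil markers were under 1 CPM in every library. So were 6 of the 12 dendritic cell markers, 3 of the 12 neutrophil markers and 3 of the 4 B cell markers.

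**Figure D1:**
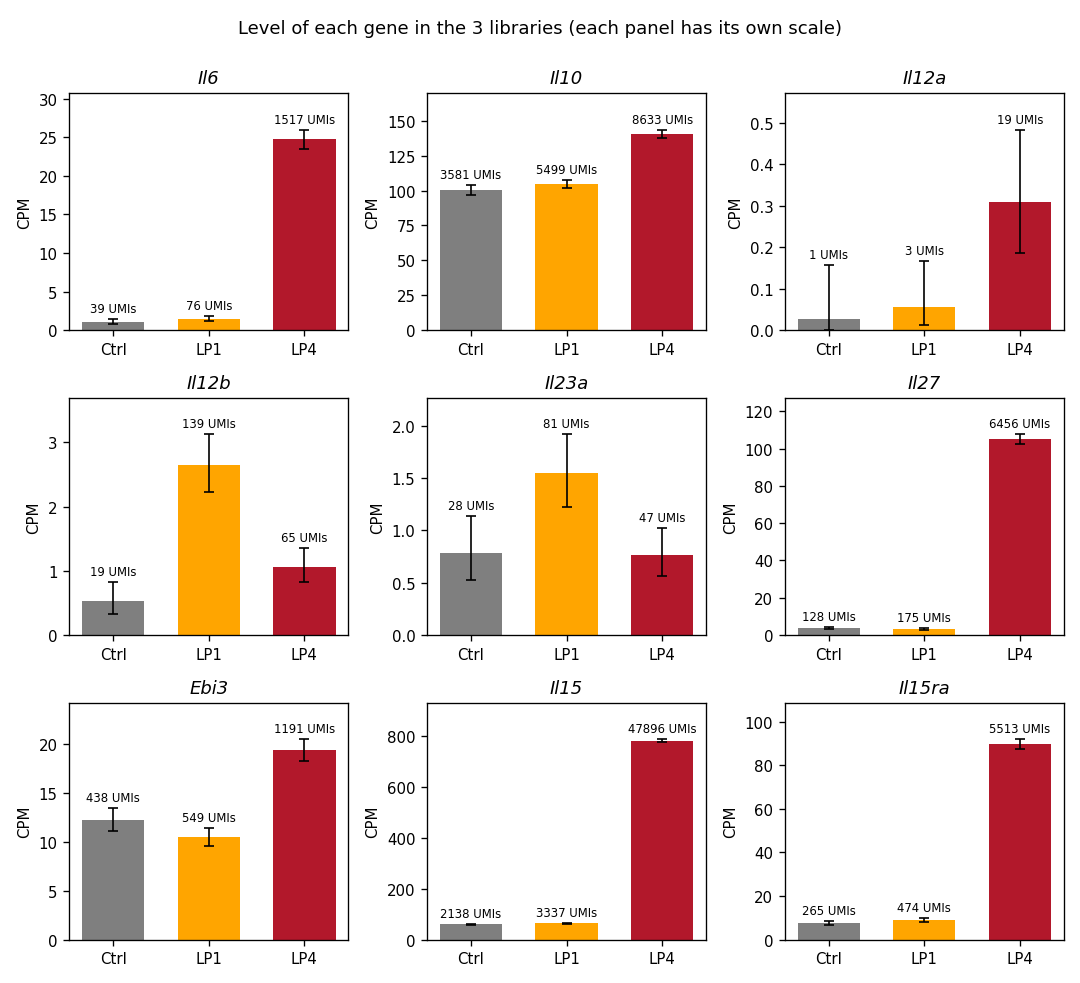
Level of each of the 9 genes in CPM (y axis, a scale of its own in each panel) in the Ctrl, LP1 and LP4 libraries, with the UMIs above each bar. Bars are the values of 1 library and error bars are exact Poisson 95% intervals. *Il6*, *Il27*, *Il15* and *Il15ra* stand far above Ctrl and LP1 in LP4, *Il12b* and *Il23a* are highest in LP1, and *Il12a* rests on at most 19 UMIs.

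In LP4, *Il6*, *Il27*, *Il15* and *Il15ra* were 12 to 29 times as high as in Ctrl, *Il10* and *Ebi3* were higher by less than 2-fold, and *Il12b* and *Il23a* were at about 1 CPM. In LP1, *Il12b* alone was past 2-fold, and 1 cell held most of its LP1 UMIs. Counting genes with 20 UMIs or more over the pair of libraries, 1 of 8 members was at least 2-fold higher and 0 of 8 at least 2-fold lower in LP1 than in Ctrl, where 1.45% of 14085 genes were higher and 3.15% lower. Against Ctrl, 5 of 9 members (*Il6*, *Il27*, *Il15*, *Il15ra* and, from 1 against 19 UMIs, *Il12a*) were at least 2-fold higher in LP4 and 0 of 9 lower, beside 11.6% and 15.6% of 14361 genes. Against LP1, the same 5 of 9 were higher in LP4 and 2 of 9, *Il12b* and *Il23a*, lower, beside 10.9% and 12.5% of 14506 genes. The median log2 ratio of the members from Ctrl to LP4 was 3.47, and that of all genes compared was -0.15. The 3.47 is the value of *Il12a* itself, from 1 against 19 UMIs, with 4 members between 3.60 and 4.87 and 4 between -0.04 and 0.99. With TMM scaling every log2 ratio of LP4 over Ctrl was higher by 0.17 and with median-of-ratios scaling by 0.21, which brought *Il12b* past 2-fold, to 6 of 9, and turned the sign of *Il23a*. The shift is the same for every gene, so this 6 of 9 cannot be read against the 11.6% of all genes.

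**Figure D2:**
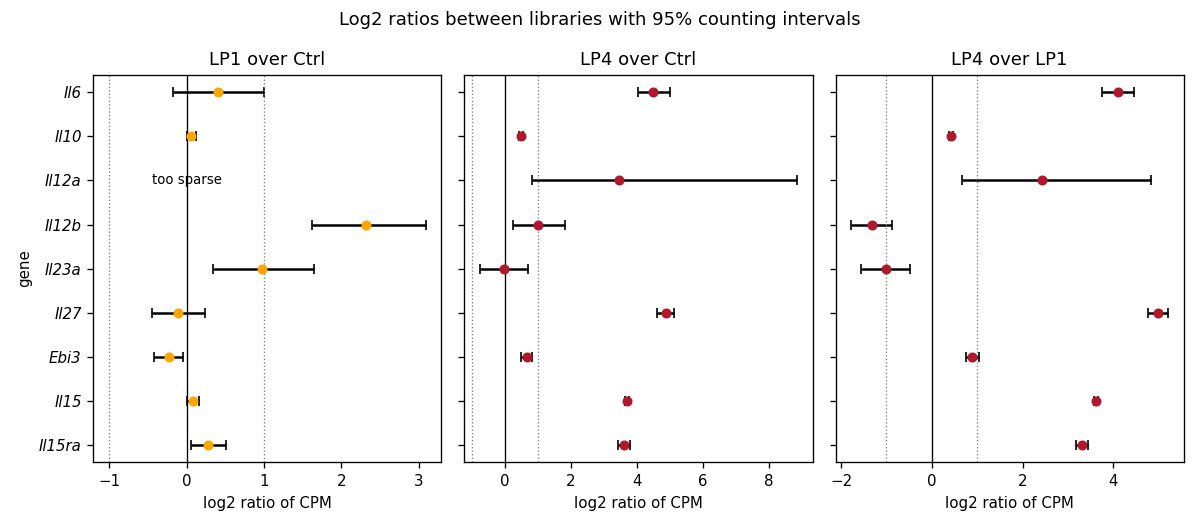
Log2 ratio of CPM (x axis) for each gene (y axis) in the 3 pairs of libraries. Points are ratios of library sums, bars are exact 95% counting intervals, the solid line marks no difference and the dotted lines a 2-fold difference. The LP4 over Ctrl values of *Il6*, *Il27*, *Il15* and *Il15ra* lie between 3.60 and 4.87, and *Il12a* had too few UMIs for LP1 over Ctrl.

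*Il6* (ENSMUSG00000025746, chromosome 5, 30013114 to 30019981, plus strand) encodes IL-6. It had 39 UMIs in Ctrl against 76 in LP1 and 1517 in LP4, or 1.09 CPM (0.777 to 1.49), 1.45 CPM (1.14 to 1.81) and 24.7 CPM (23.5 to 26.0). Ctrl and LP1 overlapped in their intervals, and LP4 lay far above both. The log2 ratio was 4.50 (4.04 to 5.00) for LP4 over Ctrl, 4.09 for LP4 over LP1 and 0.41 (-0.17 to 1.00) for LP1 over Ctrl. After thinning, 3.94% of LP4 cells (3.39 to 4.54) held a UMI, against 0.219% of Ctrl cells and 0.218% of LP1 cells. Without thinning it was seen in 612 of 4670 LP4 cells, 307 of them with 1 UMI and 11 with 10 or more. The 1% of thinned LP4 cells with most *Il6* held 41.6% of its 231 thinned UMIs, beside 30.4% of 168 for *Ebi3*, the gene nearest to it in UMIs.

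*Il10* (ENSMUSG00000016529, chromosome 1, 131019845 to 131024974, plus strand) encodes IL-10. It was already at 100.3 CPM (97.1 to 104) in Ctrl with 3581 UMIs, and at 105 CPM (102 to 108) in LP1 with 5499 UMIs and 141 CPM (138 to 144) in LP4 with 8633 UMIs. LP1 over Ctrl had a log2 ratio of 0.06 and LP4 over Ctrl of 0.49 (0.43 to 0.54), so *Il10* was higher at 4 hours by less than 2-fold. The thinned share of cells with a UMI moved less than the level, from 14.7% (13.9 to 15.7) in Ctrl and 14.2% (13.2 to 15.1) in LP1 to 16.2% (15.2 to 17.3) in LP4. The number of cells with 10 or more *Il10* UMIs, unthinned, was 17 in Ctrl against 114 in LP1 and 294 in LP4, a number that also depends on depth. At the same thinned depth the variance of the count over its mean was 1.93 in Ctrl against 1.88 in LP1 and 2.68 in LP4, where 1 would be equal sharing with counting error alone.

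*Il27* (ENSMUSG00000044701, chromosome 7, 126589010 to 126594941, minus strand) encodes the p28 chain of IL-27. It had 128 UMIs in Ctrl against 175 in LP1 and 6456 in LP4, or 3.59 CPM (2.99 to 4.26), 3.33 CPM (2.86 to 3.87) and 105 CPM (103 to 108). Ctrl and LP1 did not differ beyond counting error, with a log2 ratio of -0.10, and LP4 over Ctrl was 4.87 (4.62 to 5.14), the highest of the 9 ratios, though its interval overlapped that of *Il6*. The thinned share of cells was 0.588% in Ctrl, 0.752% in LP1 and 14.3% (13.3 to 15.3) in LP4. Of the LP4 cells, 120 held 10 or more UMIs. *Apobr* overlaps *Il27* on the other strand and stood at 56.6, 46.5 and 44.6 CPM in Ctrl, LP1 and LP4, so it was not higher in LP4.

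*Ebi3* (ENSMUSG00000003206, chromosome 17, 55952640 to 55957022, plus strand) encodes EBI3, the partner of p28. It had 438 UMIs in Ctrl against 549 in LP1 and 1191 in LP4, or 12.3 CPM (11.2 to 13.5), 10.5 CPM (9.61 to 11.4) and 19.4 CPM (18.3 to 20.5). LP4 lay above the other libraries, and LP1 slightly below Ctrl. LP1 over Ctrl had a log2 ratio of -0.23 (-0.41 to -0.05) and LP4 over Ctrl of 0.66 (0.50 to 0.82). Both chains of IL-27 were therefore counted in every library, but *Il27* differed between Ctrl and LP4 by 4.87 on the log2 scale and *Ebi3* by 0.66. Thinned shares of cells with *Ebi3* were 2.47% (2.09 to 2.90), 2.10% (1.72 to 2.53) and 3.55% (3.03 to 4.12). The antisense gene *Gm16712*, which overlaps *Ebi3*, had 20, 14 and 58 UMIs.

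*Il15* (ENSMUSG00000031712, chromosome 8, 82331632 to 82403222, minus strand) encodes IL-15. It had 2138 UMIs in Ctrl against 3337 in LP1 and 47896 in LP4, or 59.9 CPM (57.4 to 62.5), 63.6 CPM (61.5 to 65.8) and 780 CPM (773 to 787). LP1 over Ctrl had a log2 ratio of 0.09 (0.01 to 0.17), which was -0.03 as a mean of cell shares, and LP4 differed from Ctrl by 3.70 (3.64 to 3.77). *Il15* in LP4 was a transcript of most cells: 94.5% held a UMI without thinning and 71.0% (69.7 to 72.4) after thinning, against thinned shares of 9.73% (8.99 to 10.5) in Ctrl and 9.90% (9.09 to 10.8) in LP1. Without thinning, 2181 of 4670 LP4 cells held 10 or more UMIs, against 8 in Ctrl and 30 in LP1, whose cells were less deep.

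*Il15ra* (ENSMUSG00000023206, chromosome 2, 11705290 to 11734317, plus strand) encodes the receptor chain on which IL-15 is presented. It had 265 UMIs in Ctrl against 474 in LP1 and 5513 in LP4, or 7.43 CPM (6.56 to 8.38), 9.03 CPM (8.24 to 9.88) and 89.8 CPM (87.4 to 92.2). LP1 over Ctrl had a log2 ratio of 0.28 (0.06 to 0.51) and LP4 over Ctrl of 3.60 (3.42 to 3.78), whose interval overlapped that of *Il15*. Thinned shares were 1.63%, 1.70% and 14.0% (13.0 to 15.0), and 2335 of 4670 LP4 cells held a UMI without thinning.

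**Figure D3:**
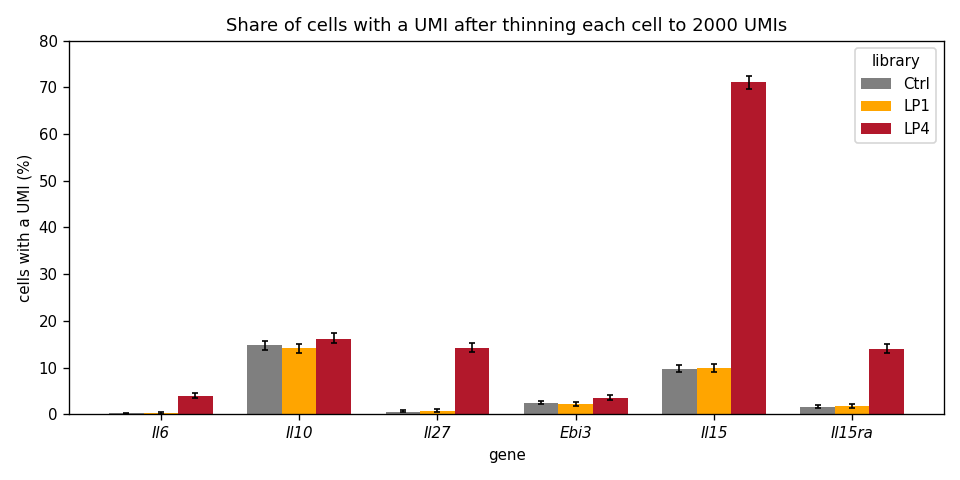
Percent of cells with at least 1 UMI (y axis) of the 6 genes that are dense enough (x axis), after each cell was thinned to 2000 UMIs, in Ctrl, LP1 and LP4. Bars are shares of 1 library and error bars are exact binomial 95% intervals. *Il15* reaches 71.0% of LP4 cells, *Il10*, *Il27* and *Il15ra* lie between 14.0% and 16.2% there, and *Il6* and *Ebi3* stay under 4%.

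The genes for the chains of IL-12 and IL-23, *Il12a* (ENSMUSG00000027776, chromosome 3, 68690644 to 68698547, plus strand), *Il12b* (ENSMUSG00000004296, chromosome 11, 44400063 to 44414033, plus strand) and *Il23a* (ENSMUSG00000025383, chromosome 10, 128296139 to 128298752, minus strand), were too sparse for shares of cells: the thinned share was under 0.5% in every library. *Il12a* had 1 UMI in Ctrl against 3 in LP1 and 19 in LP4. LP4 over Ctrl had a log2 ratio of 3.47 with an interval from 0.81 to 8.84, and Ctrl and LP1 together had too few UMIs for a ratio. After thinning, 0 of 5949 Ctrl cells and 0 of 4625 LP4 cells held a UMI of it, which at that depth allows shares of cells with a UMI of up to 0.0620% and 0.0797%. Without thinning it was seen in 1 of 6071 Ctrl cells and 14 of 4670 LP4 cells, with an interval from 0.164% to 0.502%. The 19 UMIs of LP4 lay in 14 cells, 13 of them macrophage-like.

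*Il12b* had 19 UMIs in Ctrl against 139 in LP1 and 65 in LP4, or 0.532 CPM (0.321 to 0.831), 2.65 CPM (2.23 to 3.13) and 1.06 CPM (0.817 to 1.35). The log2 ratio was 2.31 (1.62 to 3.09) for LP1 over Ctrl, -1.32 for LP4 over LP1 and 0.99 (0.24 to 1.81) for LP4 over Ctrl. One dendritic cell-like LP1 cell held 114 of the 139 UMIs. That cell had 10653 UMIs in all, among them 6 of *Ebi3*, 2 of *Il15ra* and 1 of *Il15*. Without the cell with most UMIs in each library, *Il12b* stood at 9 UMIs in Ctrl against 25 in LP1 and 45 in LP4, and LP4 over LP1 turned to 0.62. LP1 stayed above Ctrl there, at 0.477 against 0.252 CPM, by less than 2-fold. In macrophage-like clusters alone it had 19, 21 and 56 UMIs, LP1 over Ctrl was -0.40 and LP4 over LP1 was 1.14, and without cluster D, described with the clusters, it had 19, 18 and 46 UMIs and these ratios were -0.61 and 1.08. The cells with a UMI numbered 6 in Ctrl against 13 in LP1 and 14 in LP4.

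*Il23a* had 28 UMIs in Ctrl against 81 in LP1 and 47 in LP4, or 0.785 CPM (0.521 to 1.13), 1.54 CPM (1.23 to 1.92) and 0.765 CPM (0.562 to 1.02). LP1 stood above the other libraries, which overlapped. The log2 ratio was 0.98 (0.34 to 1.65) for LP1 over Ctrl, -0.04 for LP4 over Ctrl and -1.01 for LP4 over LP1. The UMIs lay in 22 Ctrl, 39 LP1 and 21 LP4 cells, and 1 macrophage-like LP1 cell held 19 of the 81. Without the cell with most UMIs in each library, 24, 62 and 36 UMIs were left and LP1 over Ctrl was 0.81. The thinned shares, 0.185%, 0.178% and 0.130%, did not follow the order of the levels and overlapped.

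**Figure D4:**
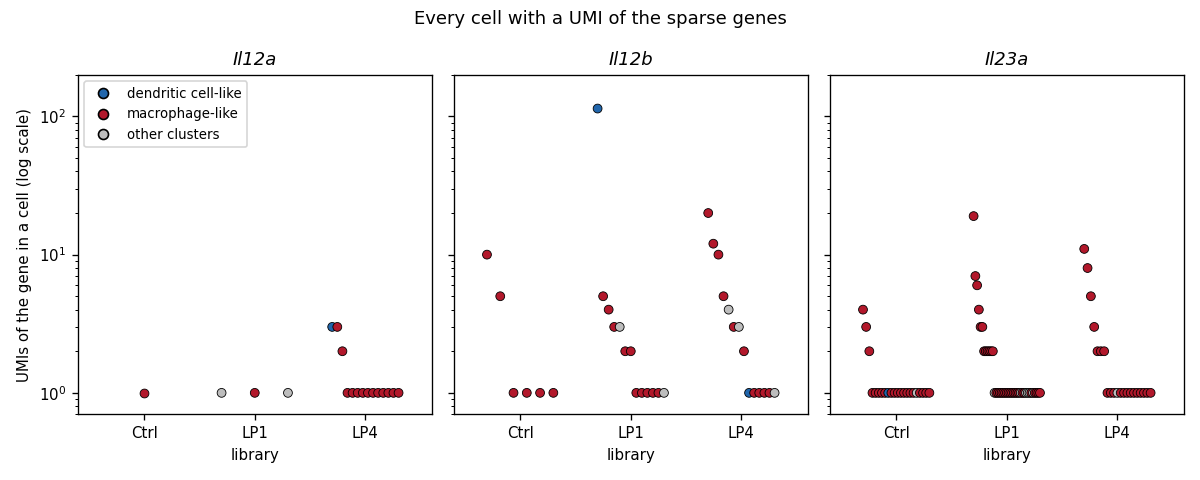
UMIs of *Il12a*, *Il12b* and *Il23a* in each cell that held at least 1 (y axis, log scale), by library (x axis); each point is a cell and its colour gives the class of its cluster. One dendritic cell-like LP1 cell with 114 *Il12b* UMIs lies far above the rest, which hold at most 20.

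All kept cells were grouped into 12 clusters, A to L, on genes that differed little between the libraries and with the 9 genes left out. A to F and K counted as macrophage-like and G as cycling-like. The top 10 genes of D held *Itgax*, a dendritic cell marker, so values of macrophage-like clusters are also given without D. As in the other macrophage-like clusters, no macrophage marker was in its top 10. In D, as in A, 5 of the 10 macrophage markers were seen in at least 50% of the cells. H, with 92 Ctrl, 74 LP1 and 76 LP4 cells, was called dendritic cell-like, J, with 32, 25 and 28 cells, neutrophil-like, and L, with 13 cells in all, stromal-like. The name of H rests on 4 antigen presentation genes in its top 10, *H2-Eb1*, *H2-Ab1*, *H2-Aa* and *Cd74*. In H, too, 5 of the 10 macrophage markers were seen in at least 50% of the cells, so the name is no proof of cell type. Cluster I, with 170 cells, stayed unnamed because of the low depth of its cells. C took 84 of its 2649 cells from LP4 and F took 998 of its 1151, so these clusters hold different cells in the 3 libraries. Clusters are set in order where they had at least 50 cells in a library. Levels of the smaller clusters J and L are given with their UMIs, and all cluster levels are a description without a test.

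*Il15* stood higher after 4 hours in 8 of 8 clusters compared, with log2 ratios from 3.02 in C to 4.86 in D. Its LP4 level lay between 587 CPM (566 to 609) in the cycling-like cluster G and 1015 CPM (942 to 1092) in C. Cluster D was lowest in Ctrl, at 20.7 CPM (17.4 to 24.5) against 126 CPM (117 to 135) in C, and reached 602 CPM (588 to 616) in LP4. Among clusters, the *Il15* level thus spanned a wider ratio in Ctrl than in LP4. *Il15ra* was higher in 8 of 8 clusters, with log2 ratios from 2.86 (1.73 to 4.31) in F to 4.86 (4.26 to 5.54) in D, and its LP4 level ran from 55.4 CPM in G to 123 CPM (103 to 147) in the dendritic cell-like cluster H.

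*Il27* stood above Ctrl in 8 of 8 clusters of LP4, with log2 ratios from 4.47 in G to 5.12 in A where Ctrl had 10 UMIs or more. In F and H, with 1 Ctrl UMI each, the ratios were 5.48 and 5.68, and the interval in H ran from 3.16 to 10.99. Its LP4 level was lowest in G at 61.2 CPM (54.5 to 68.4) and highest in the unnamed cluster I at 256 CPM (191 to 337), from 51 UMIs in 75 cells of low depth. Among macrophage-like clusters it ran from 74.3 CPM in E to 145 CPM in A. *Il6* was at least 2-fold higher in 8 of 8 clusters, although clusters E and F had no *Il6* UMI in Ctrl, where the ratios of at least 4.49 and 2.86 are bounds. Among clusters with at least 50 LP4 cells, *Il6* was highest in F at 56.1 CPM (51.4 to 61.2) and in H at 50.6 CPM (37.6 to 66.7), whose intervals overlap, and lowest in D at 9.70 CPM (7.99 to 11.7). The interval of H also overlapped that of C, at 33.8 CPM (21.7 to 50.3). That of I, at 20.1 CPM (5.48 to 51.5) from 4 UMIs, overlapped those of F, H and D. Cluster F held 21.4% of the LP4 cells and 34.2% of the *Il6* UMIs. The stromal-like cluster L, with 3, 3 and 7 cells, lay above them at 29.2 CPM in Ctrl from 1 UMI, 121 CPM in LP1 from 7 UMIs and 265 CPM (186 to 367) in LP4 from 36 UMIs. It held 2.37% of the *Il6* UMIs of LP4 in 0.150% of the cells, and the stromal markers stood at 3.05 CPM in Ctrl and 16.7 CPM in LP4.

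*Il10* levels of the macrophage-like clusters A to E ran in the order D, A, E, B and C in every library, where A with E overlapped in Ctrl and E with B in Ctrl and LP1. Cluster D was lowest in every library, at 23.8 CPM (20.2 to 27.9) in Ctrl against 28.8 CPM (25.5 to 32.4) in LP1 and 28.3 CPM (25.3 to 31.6) in LP4. Cluster C stood at 175 CPM (165 to 186) in Ctrl and 168 CPM (159 to 178) in LP1, the highest there. The interval of C overlapped that of F in Ctrl, at 157 CPM (120 to 201). In LP1 it overlapped those of F, at 123 CPM (90.8 to 162), and H, at 134 CPM (109 to 163). In LP4, F was highest at 306 CPM (294 to 317), with C next at 297 CPM (259 to 340), and the 2 overlapped. Among the 8 clusters compared, the LP4 over Ctrl ratio of *Il10* ran from -0.02 in A to 0.96 in F. D was led by *Mgll*, *Eef1a2*, *Dio2*, *Itgb3* and *Mmp9* and F by *Gbp4*, *Ddit4* and *Cxcl5*. Leading genes are by fold over all other cells of the 3 libraries, and 998 of the 1151 cells of F were LP4 cells. In the genes of F, a difference between clusters and one between libraries therefore cannot be told apart.

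*Ebi3* was highest, among clusters with at least 50 cells, in the dendritic cell-like cluster H of every library, at 28.5 CPM (16.0 to 47.0), 25.9 CPM (15.6 to 40.5) and 44.5 CPM (32.4 to 59.8) in Ctrl, LP1 and LP4. Among these clusters, the interval of H overlapped that of F in every library, of I in Ctrl and LP4, and of C in LP4. In the smaller neutrophil-like cluster J it stood at 124 CPM (66.2 to 213) in Ctrl with 13 UMIs, 28.4 CPM (7.74 to 72.7) in LP1 with 4 UMIs and 154 CPM (109 to 213) in LP4 with 37 UMIs, found in 20 of 28 cells. In the same LP4 cells, *Il15* was at 16.7 CPM, *Il10* at 16.7 CPM, *Il27* at 8.34 CPM and *Il15ra* at 4.17 CPM, and *Il6* had no UMI. Cluster J held 3.11% of the *Ebi3* UMIs of LP4 in 0.600% of its cells, and the other clusters held the rest. The macrophage-like and cycling-like clusters with the 50 cells ran from 10.7 CPM in D to 29.3 CPM in F in LP4.

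**Figure D5:**
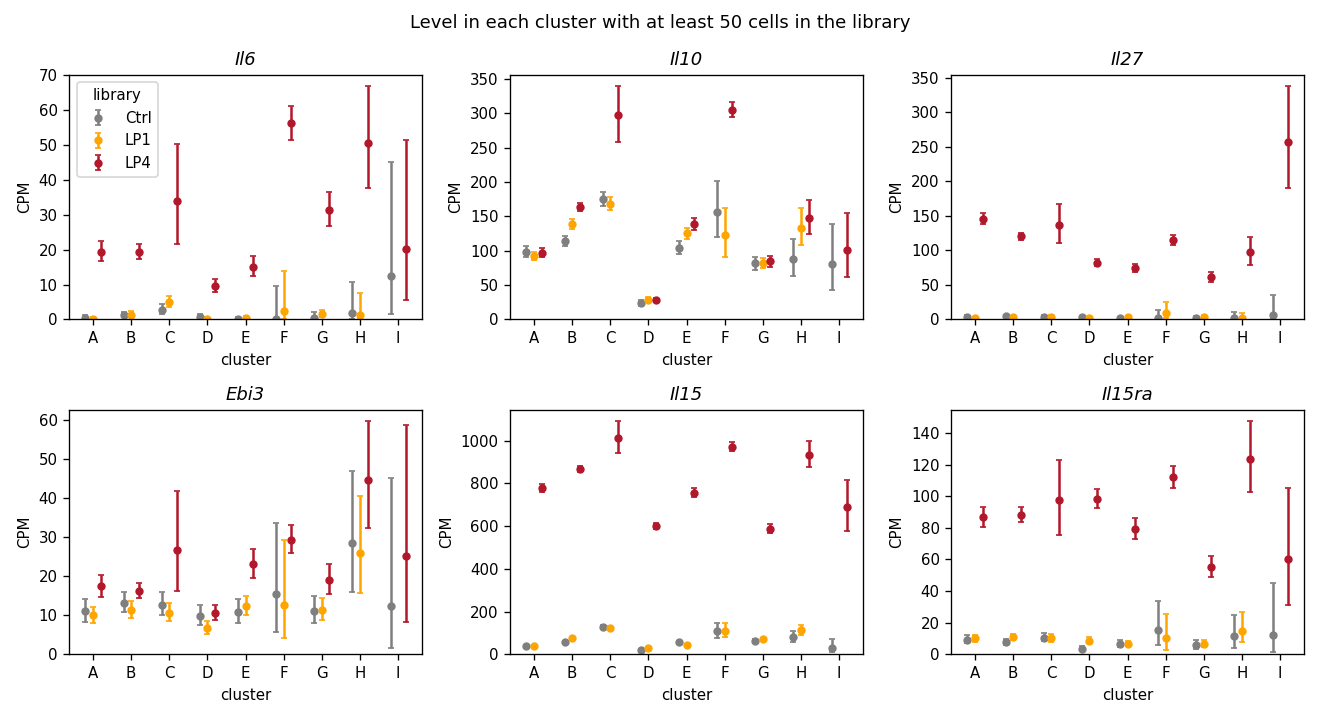
Level in CPM (y axis, from 0, a scale of its own in each panel) of 6 genes by cluster (x axis, A to I) in Ctrl, LP1 and LP4, where the cluster had at least 50 cells in the library. Points are sums over the cells of 1 cluster in 1 library and bars are exact Poisson 95% intervals. LP4 points of *Il6*, *Il27*, *Il15* and *Il15ra* lie above those of Ctrl and LP1 in every cluster shown, with intervals that overlap in I for *Il6* and *Il15ra*, while for *Il10* cluster D is low in all 3 libraries.

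The neutrophil-like cells gave the share of each gene in another cell type of the same library. After thinning, 7.14% of 28 neutrophil-like LP4 cells (0.877 to 23.5) held an *Il15* UMI, with a median depth of 9261.5 UMIs before thinning, against 71.0% of all LP4 cells, whose median was 11838. For *Il15ra* and *Il27* it was 0 of 28 cells, which allows up to 12.3%, below the 14.0% and 14.3% of all LP4 cells. At 1000 UMIs the same limit lay above the 7.09% and 9.13% of all LP4 cells, so at that depth no difference could be seen. Without thinning, 3.57% (0.0904 to 18.3) of the neutrophil-like cells held *Il15ra* and 7.14% (0.877 to 23.5) held *Il27*, against 2335 and 1988 of all 4670 LP4 cells. For *Il6*, the same 0 of 28 does not separate the neutrophil-like cells from the 3.94% of all cells, and for *Il10* the 7.14% (0.877 to 23.5) overlaps the 16.2% of all cells. *Ebi3* went the other way, with 21.4% (8.30 to 41.0) of the neutrophil-like cells against 3.55% (3.03 to 4.12) of all LP4 cells. At 1000 UMIs its shares, 7.14% (0.877 to 23.5) and 1.83% (1.46 to 2.25), overlapped.

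The chains of 1 cytokine were compared cell by cell in thinned LP4 cells. An *Il27* UMI was seen in 21.3% (15.3 to 28.4) of the 164 cells with an *Ebi3* UMI and in 14.0% (13.0 to 15.1) of the 4461 cells without. An *Il15* UMI was seen in 79.5% (76.2 to 82.5) of the 648 cells with *Il15ra* and in 69.7% (68.2 to 71.1) of the 3977 cells without. In Ctrl the same shares for *Il15* were 20.6% of 97 cells and 9.55% of 5852 cells. *Il12b* was seen in 4 thinned LP4 cells and *Il23a* in 6, none with both, which is too few for a statement on IL-23. *Il12a* was seen in 0 thinned LP4 cells, so no overlap with *Il12b* could be found and nothing follows on IL-12.

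Other genes of the LP4 response were set beside the members in the same way. An *Il27* UMI was seen in 22.3% (19.6 to 25.2) of the 887 thinned LP4 cells with a UMI of *Nos2*, the inducible nitric oxide synthase, and in 12.4% (11.3 to 13.5) of the rest. For *Il10* these shares were 16.3% and 16.2%. An *Il10* UMI was seen in 20.4% (18.8 to 22.1) of the cells with *Il1b* and in 12.0% (10.7 to 13.4) of those without, while for *Il15* the shares were 71.1% and 71.0%. With *Ifit1*, an interferon-stimulated gene, *Il15* was seen in 74.0% (72.6 to 75.4) of cells and without it in 53.5% (49.7 to 57.4), and *Il15ra* in 15.4% (14.3 to 16.5) and 6.00% (4.32 to 8.08). These shares are over thinned LP4 cells of every class. Cells thinned to the same depth can still differ in class, and the part of the clusters in these shares was not tested.

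The other pathway genes can be read against the 11.6% of all genes compared that were at least 2-fold higher and the 15.6% that were at least 2-fold lower in LP4 than in Ctrl. Of 10 receptor genes of these cytokines other than *Il15ra*, 8 had enough UMIs, and 0 of these were at least 2-fold higher and 2 at least 2-fold lower in LP4, with a median log2 ratio of -0.38. *Il6ra*, the IL-6 receptor alpha chain, had 60.2 CPM in Ctrl and 26.8 CPM in LP4, a log2 ratio of -1.17, and *Il12rb1*, a chain shared by the IL-12 and IL-23 receptors, rested on 27 and 22 UMIs at -1.08. *Il2rg*, the common gamma chain used by IL-15, stood at -0.49 and *Il10ra* at -0.42. With TMM scaling *Il6ra* was at -0.997 and *Il12rb1* at -0.91, so that 0 of 8 were past 2-fold, and 1 of 8 changed sign. *Il2rb*, the other signalling chain for IL-15, had 0 UMIs in Ctrl and 1 in LP4.

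Of 13 Janus kinase, STAT and SOCS genes, which carry the signals of these cytokines or limit them, 9 were at least 2-fold higher in LP4 than in Ctrl and 0 lower, with a median of 1.94. *Socs1*, an inhibitor of Janus kinases, went from 60 to 5569 UMIs, a log2 ratio of 5.75, and *Socs3*, which limits signals of the IL-6 receptor, from 52.3 to 648 CPM, a ratio of 3.63. *Cish* was at 3.87 and *Stat5a* at 2.30. *Socs1* was the 1 gene of the list past 2-fold in LP1, at 1.20, where 1.45% of all genes were.

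Of 13 regulators of transcription of these cytokines, 3 were at least 2-fold higher in LP4, *Cebpb* at 4.07, *Cebpd* at 2.32 and *Bcl3* at 1.58, and 0 lower. *Rel*, an NF-κB subunit, stood at -0.75 and *Irf1* at 0.18, and the median of the list was 0.18. Of 7 factors that act on the decay of cytokine transcripts, 2 were at least 2-fold higher in LP4, *Zfp36*, which encodes tristetraprolin, at 2.09, and *Arid5a*, which is known to stabilise *Il6* mRNA, at 1.48, and *Rc3h2* was at 0.88 and *Rc3h1*, which encodes roquin, at 0.68. Of 16 other cytokines of the same families, 7 had enough UMIs and 3 were at least 2-fold higher in LP4. *Il19*, of the IL-10 family, had 3 UMIs in Ctrl and 113 in LP4, at 4.45 (2.87 to 6.75). *Il11* had 7 and 82 UMIs, at 2.77 (1.66 to 4.13), and *Il7* had 9 and 43 UMIs, at 1.47 (0.42 to 2.70). *Cntf* stood at 0.54. In LP1, *Cebpb* and *Osm* were past 2-fold, and *Osm*, a cytokine of the IL-6 family, went from 22.8 CPM in Ctrl to 55.2 CPM in LP1 and 28.5 CPM in LP4.

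The genes whose levels were most like those of each member were ranked by Pearson's r of log2(CPM + 1) over 26 groups, each the cells of 1 cluster in 1 library. The groups share 3 libraries, so for members far higher in LP4 r mostly holds the difference of LP4 from the rest, and no p is given. For *Il15* these were *Parp9* at 0.979, *Nlrc5* and *Il4ra*, and for *Il15ra* *Ifi209* at 0.978, *Nr3c1* and *Usb1*. Over the 9 groups of LP4 alone r was 0.76 to 0.91 for those of *Il15* and 0.70 to 0.80 for those of *Il15ra*. For *Il27* they were *Usp18* at 0.980, *Daxx* and *Nos2*, though over the 9 groups of LP4 alone r was 0.01 for *Usp18*, 0.62 for *Daxx* and 0.09 for *Nos2*. *Slc9a3r1* led for *Il6* at 0.964, with *Igtp* and *Pnp*, and *Gbp9* for *Ebi3* at 0.866, with *Gm15987* and *Ifi205*. Within LP4 alone r was 0.56 to 0.75 for those of *Il6* and 0.88 to 0.97 for those of *Ebi3*. For *Il10* they were *Zfp36l1* at 0.899, *Arl4c* and *Ets2*, and within LP4 alone r for these was 0.96, 0.95 and 0.93. *Zfp36l1* stood at 156, 177 and 133 CPM in Ctrl, LP1 and LP4, so it was not higher in LP4 as *Il10* was.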

How the data were processed

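RNA of single BMDMs was measured in 3 libraries, 1 each for Ctrl, LP1 and LP4. The authors aligned the reads to the mouse mm10 transcriptome with Cell Ranger, version 7.1.0 in the submitters' processing notes, and deposited UMI counts, not normalized, for each gene in each barcode. Whether intronic reads were counted is not given in the sources used here.

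Kept barcodes had over 500 UMIs, over 500 genes and a mitochondrial share under 5%, and UMIs were summed over cells and scaled to CPM. Depth was 35688939 to 61402275 UMIs per library. Intervals are exact Poisson (CPM), exact conditional binomial (ratios) and exact binomial (Clopper-Pearson, shares), at 95%. For ratios, a count of 0 was set to 3 counts. Ratios needed 20 UMIs in both libraries together, and 2-fold was the threshold. Clustering used 2000 variable genes of 5286 that differed under 1.5 times between libraries, centred within library, 30 principal components, 20 neighbours and Leiden resolution 0.5. A cluster took a name from 3 or more listed markers within its top 10 genes, or was macrophage-like where 50% of cells or more held each of 3 macrophage markers. A cluster with no listed marker in its top 10 stayed unnamed where the median depth of a library was over 3 times that of the cluster's cells in it. No doublet caller was run, and leaving out the 5% deepest cells was an alternative.

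The members, gene lists and marker lists were chosen with earlier results of these data known. Named are the 9 members, up to 4 genes per list with the largest absolute LP4 over Ctrl ratio, and 3 genes most like each member with at least 1000 UMIs over the libraries. Other genes named, such as *Apobr*, *Gm16712*, *Osm*, *Irf1*, *Il2rb* and leading genes of clusters, were chosen after their values were seen. Positions are from GENCODE vM21 (GRCm38, also called mm10). A planned comparison of protein sequences was not run, and the protein table was not used here. Self-tests on simulated data ran first. Python 3.11.15 was used with scanpy 1.11.5, leidenalg 0.10.2, igraph 0.11.9, scipy 1.17.1 and matplotlib 3.10.9, and TMM factors came from edgeR 4.0.16 in R 4.3.3. Alternatives were all deposited barcodes, TMM scaling, median-of-ratios scaling, leaving mitochondrial and ribosomal protein genes out of CPM, averaging each cell's share, using macrophage-like clusters only, with and without D, other count minimums, other depths of thinning and other resolutions.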

Additional observations from a re-analysis of the deposited data

Results flagged for a closer look

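The limits on cells removed 369 barcodes of LP4, most of them for mitochondrial UMIs, and the members were also counted in these, which enter no comparison above. *Il6* stood at 20.7 CPM there and at 24.7 CPM in the kept LP4 cells, *Il27* at 73.6 and 105 CPM, *Il15* at 652 and 780 CPM and *Il15ra* at 70.0 and 89.8 CPM. All 4 were above the interval of the Ctrl library in the removed barcodes.

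For *Il12b*, the log2 ratio of LP4 over LP1 was 1.43 in macrophage-like cluster B and -7.26 in H, the dendritic cell-like cluster, with intervals on opposite sides of 0. The value in H compares the LP1 cell with 114 UMIs with 1 UMI in LP4, and in B 1 LP4 cell held 20 of the 28 UMIs, so single cells set both values. For *Il15*, LP1 over Ctrl ran from -0.30 (-0.53 to -0.06) in cluster E to 0.58 (0.28 to 0.88) in cluster D. These differences between clusters were not tested, since each cluster has 1 library per condition.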

How the results depend on the processing

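The log2 ratios of *Il6*, *Il10*, *Il27*, *Ebi3*, *Il15* and *Il15ra* for LP4 over Ctrl kept their direction and their side of 2-fold in every alternative, from 4.17 to 4.71 for *Il6*, 0.46 to 0.69 for *Il10*, 4.84 to 5.08 for *Il27*, 0.64 to 0.87 for *Ebi3*, 3.58 to 3.91 for *Il15* and 3.41 to 3.80 for *Il15ra*. Leaving out D, or the cell with most UMIs in each library, was chosen after seeing the data. *Il15* for LP1 over Ctrl, 0.09, turned to -0.03 with means of cell shares. *Il12b* reversed in part. In macrophage-like clusters alone LP1 over Ctrl was -0.40 and LP4 over LP1 was 1.14, and without D they were -0.61 and 1.08. Without the cell with most UMIs in each library, LP4 over LP1 was 0.62, while LP1 stayed above Ctrl, at 0.477 against 0.252 CPM. By construction these alternatives leave out the LP1 cell with 114 UMIs. *Il12a* for LP4 over Ctrl ran from 2.89 to 3.67, and without the cell with most UMIs in each library, which leaves 0 UMIs in Ctrl, it was at least 1.63. The count of members at least 2-fold higher in LP1 than in Ctrl, 1, was 2 with TMM scaling, with median-of-ratios scaling and without the 5% deepest cells, where *Il23a* passed too, and 2 at a minimum of 1 UMI, where *Il12a* did, and 0 in macrophage-like clusters alone, with or without D, and at a minimum of 10 CPM. The count lower in LP4 than in LP1, 2, was 1 with TMM scaling, median-of-ratios scaling and means of cell shares, and 0 in macrophage-like clusters alone, with or without D, and at 10 CPM. For other scalings, cell sets and cell means, no share of all genes stands beside these counts, which show only how the members moved. Over all genes, a minimum of 10 CPM gave 54 higher and 36 lower in LP1 over Ctrl, 850 and 795 in LP4 over Ctrl and 696 and 601 in LP4 over LP1. A minimum of 1 UMI gave 1769 and 3032 in LP1 over Ctrl, 5222 lower in LP4 over Ctrl, and 3252 and 3986 in LP4 over LP1. There a count of 0 was set to 3 counts even where the other library had 1 UMI. Such a gene was called in the direction opposite to its UMIs, so the counts at 1 UMI do not measure change. The number of genes compared also differed between the minimums, so these counts are not shares and cannot be set side by side. Of 234 log2 ratios recomputed, 209 stayed within their counting interval, 20 moved and 5 reversed, and of 81 shares of cells 61 moved with the depth of thinning. No paired analysis was possible because each condition is 1 library. Few UMIs limit *Il12a*, *Il12b* and *Il23a*. For *Il12b* and *Il23a* a cell with more UMIs than the rest can set or shift the ratio, and *Il12a* had 1 UMI in Ctrl.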
